A study of Homo sapiens with 24 samples.

Results

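BRD8518 against vehicle after 1 h in HepG2 cells was described from 6 of the 24 arrays of the series, 3 labelled 1 uM BRD8518 for 1 h and 3 labelled DMSO for 1 h, chosen by their titles. HepG2 is an established human hepatoblastoma line that keeps many hepatocyte functions. BRD8518 is a compound given by code name alone, and the series title calls the agents used TRIB1-inducing. The comparison ran over the 16098 probe sets with 1 gene symbol, kept as 14884 genes by taking the probe set with the highest mean for a gene with several.

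For reference, 3 arrays of cells given 100 ng/mL oncostatin M (OSM), a cytokine of the interleukin-6 family, for 1 h were also used. So were 2 BRD8518 and 4 DMSO arrays at 6 h, and 3 and 3 at 24 h, all with BRD8518 at 1 uM. All wells held 0.25% DMSO, those with OSM included. Values are log2 intensities after robust multi-array averaging (RMA), so a difference of 1 is a 2-fold change. Each change is given with its standard error from a limma fit over all arrays, and a gene is said to have risen or fallen where its Benjamini-Hochberg adjusted p over all genes was under 0.05. The labels do not say whether the 3 arrays of a group stem from different cultures, and the p-values then cover array-to-array spread alone, possibly of technical origin.

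Within the first hour after a growth factor, cytokine or stress signal, cells switch on immediate-early genes, whose transcription needs no new protein synthesis. Kinases such as ERK and p38 activate factors already bound at these promoters, among them serum response factor (SRF) at CArG boxes and CREB at cAMP response elements. Many early products are transcription factors (EGR1, FOS, JUN), and others are phosphatases and adaptors that switch the same kinases off again. The secreted products, such as endothelin and chemokines, act on neighbouring cells, and these mRNAs are mostly short-lived.

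After 1 h of BRD8518, 38 of 14884 genes had changed (0.255%). Of these, 33 rose (0.222%) and 5 fell (0.0336%), and 11 changed by at least 2-fold. Before adjustment, 760 of the 14884 genes had a p under 0.05, with 476 higher and 284 lower. That is close to the share of 0.05 that this cut-off gives with no change at all. The count by itself thus does not point to further changed genes. The 3 BRD8518 arrays lay wholly on 1 side of the 3 DMSO arrays for all 38. Over all genes, 7.97% had every BRD8518 array above every DMSO array and 5.56% had every one below. The median change over all genes was 0.02. No changed gene had a mean value under 4 over all 24 arrays, where 2388 of the genes tested lay. Within the BRD8518 1 h arrays, MIR4521 averaged 3.66.

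**Figure D1:**
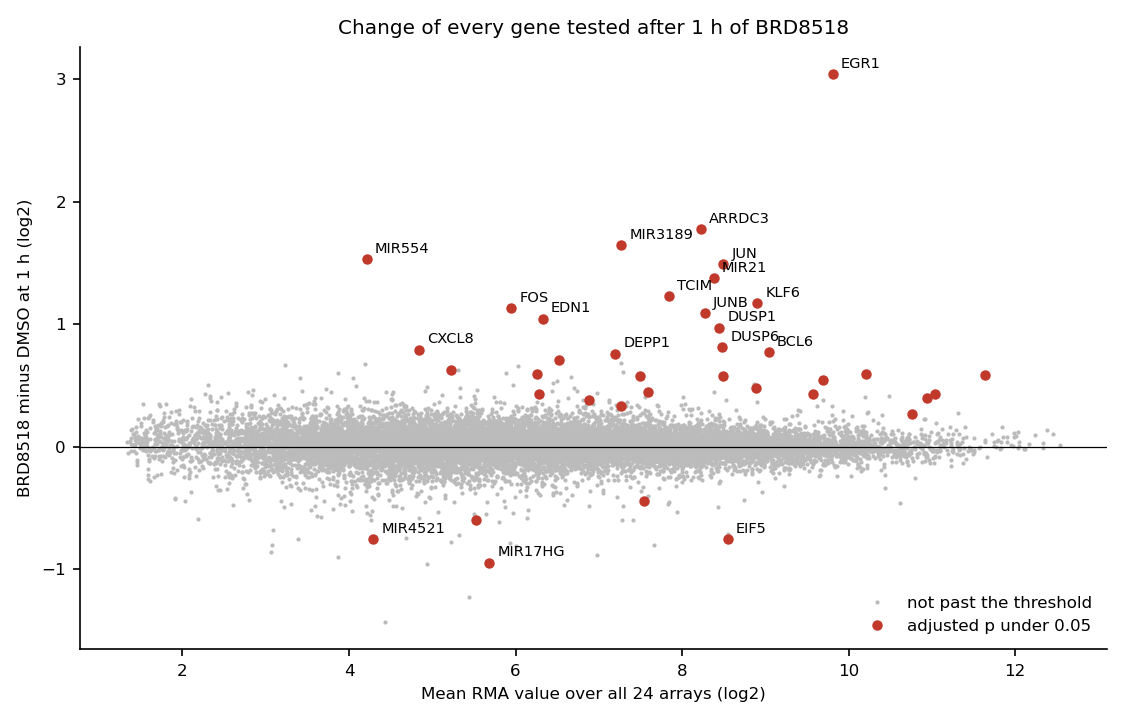
Change after 1 h of BRD8518 (y axis, log2, BRD8518 minus DMSO) against mean RMA value over all 24 arrays (x axis, log2) for each of the 14884 genes, with the 38 genes past the threshold in red. EGR1 stands alone at 3.04, the next rises are ARRDC3, MIR3189 and MIR554 between 1.53 and 1.78, and 5 red points lie below 0.

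The 6 arrays correlated with the others of their own group at a mean r of 0.996. An array used only for the later times, DMSO 6 h replicate 2, stood apart, with a mean r of 0.977 to its group and a residual SD of 0.33. It enters the shared estimate of spread: without it 55 genes were higher and 21 lower at 1 h, and all 38 genes kept their call. The identity of the cells is taken from the labels. Hepatocyte markers ran from APOB, at a mean of 12.6 in both groups, down to PCK1 at 4.91 in DMSO. Some markers of other cells, LYZ and SOX9 (10.7 in DMSO) among them, lay in the same range, so these levels alone do not identify the cells. The 11 measured hepatocyte markers summed to 106.2 to 107.1 over the DMSO arrays and 107.2 to 107.6 over the BRD8518 arrays, and PCK1 was the only one past the threshold. The 9 measured markers of endothelial, blood, biliary and other cells summed to 66.9 to 68.7 and 67.7 to 68.6, from LYZ at 12.2 down to KRT7 at 4.88 in DMSO, and SOX9 alone passed the threshold.

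EGR1, a zinc-finger transcription factor and a standard reporter of ERK and SRF activity, gave the largest change. Its values were 8.34, 8.43 and 8.43 in DMSO and 11.2, 11.6 and 11.5 in BRD8518. The lowest treated array was thus 2.79 above the highest control. The rise was 3.04 ± 0.13, or 8.22-fold (adjusted p 2.02e-12). Its dimmer probe set rose as well, by 1.02 ± 0.11 (adjusted p 1.01e-05 over probe sets).

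The EGR1 promoter shows the elements that early genes are known for. The stretch below is RefSeq sequence on GRCh38.p14, chr5:138465354-138465425 on the plus strand, from 125 to 54 bases before the start site, and is shown because EGR1 rose most. Capitals mark its 2 CArG boxes.
EGR1: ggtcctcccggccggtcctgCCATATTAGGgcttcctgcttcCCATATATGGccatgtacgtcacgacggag
For DUSP1, the stretch lies at chr5:172771293-172771340 on the minus strand, from 145 to 98 bases before the start site. Capitals mark a full cAMP response element (CRE).
DUSP1: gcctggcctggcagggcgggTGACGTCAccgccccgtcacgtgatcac
In 3 further genes that rose, capitals mark a match to TGANTCA. This is a loose form, with any middle base, of the TPA response element that FOS and JUN dimers are known to bind. The match reads TGACTCA in CXCL8 but TGATTCA in ANKRD1 and FST, so binding there cannot be read from the letters. CXCL8 is read at chr4:73740412-73740458 on the plus strand, ANKRD1 at chr10:90921256-90921302 on the minus strand and FST at chr5:53480449-53480495 on the plus strand.
CXCL8: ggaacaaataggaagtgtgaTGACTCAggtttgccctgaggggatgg
ANKRD1: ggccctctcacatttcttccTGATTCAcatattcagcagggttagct
FST: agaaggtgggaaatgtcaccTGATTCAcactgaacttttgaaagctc

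Promoters were matched by symbol for 26 of the 38 genes, 23 that rose and 3 that fell, and the 250 bases before each start site were searched on both strands. A CArG box was in 1 of the 23 risen genes (EGR1), beside 1.18% of the 10749 tested genes with a promoter. The CRE, TGACGTCA, was in 1 of 23 (DUSP1), beside 2.34%. TGANTCA, the loose form of the TPA response element, was in 3 of 23 (13.0%), beside 5.14%. An EGR motif, GCGGGGGCG, was in 2 (KLF6 and ZC3H12A, 8.70%), beside 6.69%, and an Sp1 motif, GGGCGG, was in 16 (69.6%), beside 57.8%. All 3 fallen genes held the Sp1 motif as well, and none held any of the others. EGR and Sp1 motifs can overlap, and the EGR motif overlapped an Sp1 motif in both KLF6 and ZC3H12A. These are matches of letters in a short window, given as a description with no test.

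Among the AP-1 factors, JUN stood at 7.82, 7.73 and 7.77 in DMSO and 9.14, 9.41 and 9.25 in BRD8518, a rise of 1.49 ± 0.08 (2.81-fold, adjusted p 4.0e-11). FOS, its dimer partner, went from 5.34, 5.55 and 5.24 to 6.22, 6.76 and 6.54, a rise of 1.13 ± 0.16 (2.19-fold, adjusted p 0.000796). JUNB, a JUN relative that often opposes it, went from 7.22, 7.19 and 7.18 to 8.10, 8.44 and 8.32, by 1.09 ± 0.12 (2.13-fold, adjusted p 1.06e-05). In all 3 genes the BRD8518 array with the lowest value was replicate 1. The dimmer probe set named for FOS read a change of 0.13 ± 0.14, so the FOS call rests on 1 probe set and was lost with the mean of both (0.63). Of 14 EGR and AP-1 genes measured, 4 rose and none fell, with a median of 0.40. Over all genes, 0.222% rose and 0.0336% fell, with a median change of 0.02. Lists here and below were chosen with earlier results of these data known, so their counts are no independent result. ATF3 (0.51 ± 0.14, adjusted p 0.264), EGR4 (0.48 ± 0.11, 0.0602) and JUND (0.45 ± 0.10, 0.0639) did not pass the threshold.

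KLF6, a zinc-finger factor of the Kruppel family induced by injury, stood at 8.05, 7.97 and 7.98 in DMSO and at 9.02, 9.29 and 9.20 in BRD8518. The groups were 0.97 apart, and the rise was 1.17 ± 0.09 (2.25-fold, adjusted p 5.67e-08). It was the only 1 of 14 Kruppel-like factors measured to pass, and the median of the 14 was 0.10 (0.222% of all genes rose). KLF8 (-0.27 ± 0.11) and KLF9 (0.26 ± 0.11) came next in size.

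Other transcription factors rose less. BCL6, a repressor best known from germinal-centre B cells that also acts on lipid genes in liver, rose by 0.77 ± 0.08 (adjusted p 1.06e-05), with DMSO arrays at 8.68, 8.66 and 8.58 and BRD8518 arrays at 9.49, 9.42 and 9.33. MYC, the growth-promoting factor, rose by 0.43 ± 0.06 (adjusted p 0.000979). The repressor ZNF503 rose by 0.33 ± 0.07 (adjusted p 0.0424) and SOX9, a factor of biliary and progenitor cells, by 0.27 ± 0.06 (adjusted p 0.0427). Both were at the edge of the threshold. With any 1 of the 6 arrays left out, SOX9 no longer passed (adjusted p 0.102 to 0.253), and ZNF503 passed only when BRD8518 replicate 3 was the array left out (otherwise up to 0.375). Of 14 other immediate-early genes, 3 rose (BCL6, MYC and IER3), with a median of 0.22, while 0.222% of all genes rose. IER2 read 0.68 ± 0.19 but did not pass (adjusted p 0.319), nor did SRF itself (0.33 ± 0.07, adjusted p 0.0514).

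**Figure D2:**
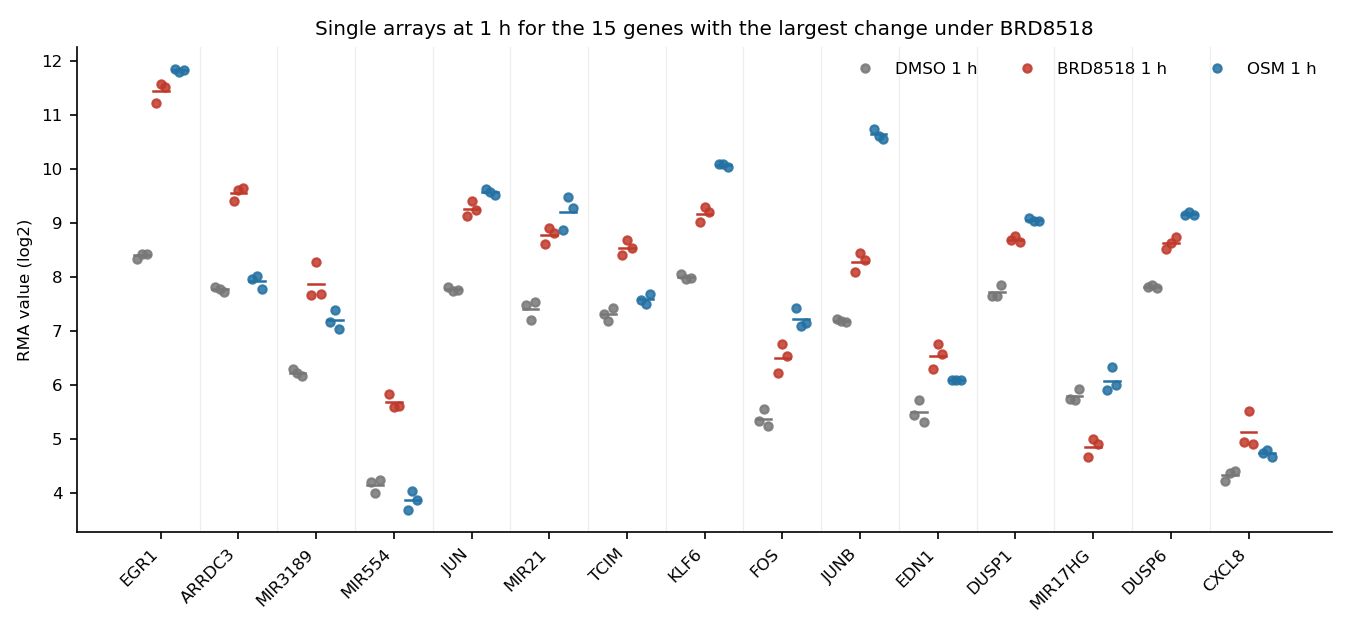
RMA values (y axis, log2) of single arrays for the 15 genes with the largest change, ordered by its size (x axis). Each point is 1 array and each bar the mean of 3, in DMSO (grey), BRD8518 (red) and OSM (blue) at 1 h. Red points clear the grey ones in every gene, JUNB and KLF6 are higher with OSM, and ARRDC3, MIR554 and TCIM are high with BRD8518.

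Some genes that end MAP kinase and growth factor signals rose with the factors above. DUSP1, a nuclear phosphatase that acts on p38, JNK and ERK, stood at 7.66, 7.66 and 7.84 in DMSO and at 8.68, 8.76 and 8.64 in BRD8518. It rose by 0.97 ± 0.07 (1.96-fold, adjusted p 3.09e-08). DUSP6, a cytoplasmic phosphatase for ERK, stood at 7.81, 7.85 and 7.79 against 8.52, 8.63 and 8.75, a rise of 0.81 ± 0.08 (1.76-fold, adjusted p 2.28e-06). For both genes the gap between the groups was wider than the range within either.

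SPRY4, a Sprouty inhibitor of receptor tyrosine kinase signals, rose by 0.54 ± 0.08 (adjusted p 0.00155). DUSP5, the nuclear ERK phosphatase, rose by 0.59 ± 0.13 (adjusted p 0.0451). ERRFI1, which binds and blocks the EGF receptor, rose by 0.43 ± 0.09 (adjusted p 0.0254). IER3, which prolongs ERK activity and modulates cell death, rose by 0.40 ± 0.08 (adjusted p 0.0211), on the probe set kept. Its 10 others gave only 3 sets of values, of which 5 identical copies read 0.34 ± 0.14 and did not pass (adjusted p 0.824 over probe sets), 4 identical copies read 0.42 and the last 0.41. The last 3 calls were not firm. DUSP5 lost its call without DMSO replicate 1 or 2 or BRD8518 replicate 2 or 3 (up to 0.398), and its dimmer probe set read 0.15 ± 0.19. ERRFI1 passed only with BRD8518 replicate 1 left out (otherwise up to 0.150), and IER3 lost its call when any of the same 4 arrays as for DUSP5 was left out (up to 0.199). Of 14 feedback genes measured, 5 rose and none fell, with a median of 0.22, while 0.222% of all genes rose. DUSP10 (0.44 ± 0.12, adjusted p 0.314) and SPRY2 (0.30 ± 0.09, adjusted p 0.499) did not pass.

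Secreted signals formed the next group. EDN1, the precursor of the vasoconstrictor endothelin-1, stood at 5.44, 5.73 and 5.32 in DMSO and at 6.29, 6.77 and 6.57 in BRD8518. The rise was 1.05 ± 0.13 (2.06-fold, adjusted p 4.61e-05). CXCL8, the neutrophil chemokine interleukin-8, stood at 4.22, 4.38 and 4.41 against 4.95, 5.52 and 4.92, a rise of 0.79 ± 0.12 (1.73-fold, adjusted p 0.00133). Its treated arrays were uneven, with replicate 2 well above the others, yet the lowest was still 0.51 above the highest control.

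The stress hormone GDF15 rose by 0.58 ± 0.10 (adjusted p 0.00363) from an already high level, 10.9 to 11.0 over the DMSO arrays. CCL20, a chemokine for CCR6-bearing lymphocytes, rose by 0.58 ± 0.10 (adjusted p 0.00319). Without BRD8518 replicate 2, the adjusted p of both GDF15 and CCL20 was 0.0501. FST, the activin antagonist follistatin, rose by 0.48 ± 0.08 (adjusted p 0.00267). Of 15 secreted growth factors and cytokines measured, 3 rose and the median was 0.12, while 0.222% of all genes rose. Of 12 chemokine and NF-kB targets, 2 rose and the median was 0.16, and NFKB1 itself read -0.00. LIF (0.37 ± 0.10, adjusted p 0.249), CCN2 (0.28 ± 0.08, adjusted p 0.319) and IL11 (0.24 ± 0.15) did not pass, although a dimmer probe set of CCN2 read 0.49 ± 0.09 (adjusted p 0.0183 over probe sets).

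ZC3H12A, the ribonuclease that degrades cytokine mRNAs, rose by 0.58 ± 0.09 (adjusted p 0.00101). ANKRD1, a mechanosensitive YAP target, rose by 0.59 ± 0.09 (adjusted p 0.00204), PDLIM7, an actin-linked LIM protein, by 0.45 ± 0.09 (adjusted p 0.0178), and TPM1, a tropomyosin, by 0.38 ± 0.08 (adjusted p 0.0424). The dimmer TPM1 probe set read 0.15 ± 0.15. PDLIM7 lost its call without DMSO replicate 1 or 3 or BRD8518 replicate 2 or 3 (up to 0.168), and TPM1 passed only with BRD8518 replicate 1 left out (otherwise up to 0.281). Of the 12 SRF, MRTF and YAP targets measured, 2 rose, with a median of 0.18, while 0.222% of all genes rose. FHL2 (0.34 ± 0.11) did not pass.

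ARRDC3, an alpha-arrestin that routes receptors to ubiquitin ligases and takes part in energy balance, gave the largest rise after EGR1. It stood at 7.81, 7.78 and 7.73 in DMSO and at 9.41, 9.61 and 9.65 in BRD8518. The change was 1.78 ± 0.13 (3.43-fold, adjusted p 1.25e-08), and the groups were 1.59 apart. The 5 other alpha-arrestins measured did not pass, TXNIP at -0.13 ± 0.14 and ARRDC4 at -0.15 ± 0.10 included.

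TCIM, a small protein linked to Wnt signalling, stood at 7.32, 7.19 and 7.42 against 8.41, 8.68 and 8.53, a rise of 1.23 ± 0.09 (2.34-fold, adjusted p 1.25e-08). The gap of 0.98 between its groups was several times the range within them. DEPP1, a FOXO target, rose by 0.76 ± 0.11 (adjusted p 0.000796), while its dimmer probe set read 0.29 ± 0.08. PCK1, the rate-limiting enzyme of gluconeogenesis and a CREB target, rose by 0.63 ± 0.10 (adjusted p 0.00204). MT1E, a metal-binding metallothionein with several near-identical relatives whose signal its probes may share, rose by 0.71 ± 0.14 (adjusted p 0.0254), but lost its call without any DMSO array or without BRD8518 replicate 2 (up to 0.153). Of 11 cAMP and CREB targets measured, PCK1, DUSP1 and FOS rose, with a median of 0.26, while 0.222% of all genes rose. DUSP1 and FOS are also counted in lists above. SIK1 read 0.39 ± 0.10 (adjusted p 0.182).

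Of the changed genes, 5 were named for microRNA precursors and MIR17HG is a noncoding microRNA host, while GDF15 and TUFT1 are coding genes that hold MIR3189 and MIR554. By RefSeq position ZC3H12A also overlaps a precursor, MIR6732, and MIR4521 overlaps a tRNA gene, neither of which was among the genes tested. Probe sets for such genes read precursor RNA or a longer transcript that holds it, and mature microRNAs were not measured. The mature sequences are from RefSeq, and capitals mark the seed, bases 2 to 8, which pairs with target mRNAs. The following belong to the 3 precursors that rose, which share no seed.
hsa-miR-21-5p: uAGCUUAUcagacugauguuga
hsa-miR-3189-5p: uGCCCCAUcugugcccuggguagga
hsa-miR-3189-3p: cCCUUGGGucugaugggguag
hsa-miR-554: gCUAGUCCugacucagccagu
Those below belong to transcripts that fell. MIR15A gives miR-15a, and the host MIR17HG carries 6 microRNAs, of which miR-17-5p and miR-20a-5p share a seed, as do miR-19a-3p and miR-19b-3p.
hsa-miR-15a-5p: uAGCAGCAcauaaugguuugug
hsa-miR-4521: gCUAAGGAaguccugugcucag
hsa-miR-17-5p: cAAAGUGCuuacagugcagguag
hsa-miR-20a-5p: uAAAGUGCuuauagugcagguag
hsa-miR-19a-3p: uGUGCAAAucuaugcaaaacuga
hsa-miR-19b-3p: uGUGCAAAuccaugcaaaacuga

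The MIR3189 probe set stood at 6.29, 6.23 and 6.18 in DMSO and at 7.67, 8.28 and 7.68 in BRD8518, a rise of 1.65 ± 0.19 (3.13-fold, adjusted p 1.62e-05). This precursor lies within GDF15, whose own probe set rose by 0.58. MIR554 stood at 4.21, 4.0 and 4.24 against 5.84, 5.60 and 5.60, a rise of 1.53 ± 0.15 (2.89-fold, adjusted p 2.86e-06). It lies within TUFT1, which rose by 0.43 ± 0.08 (adjusted p 0.00632), a call lost without DMSO replicate 3 or BRD8518 replicate 2 (up to 0.0808). In both places the precursor and the overlapping gene rose together at 1 h, and the 1 h values alone do not tell their transcripts apart. MIR554 and TUFT1 parted later. The 6 h change minus the 1 h change was -1.27 for MIR554 and 0.87 for TUFT1, both past the threshold. Which transcripts the 2 probe sets read was not tested.

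MIR21, a microRNA raised in many tumours and by STAT3 and AP-1, stood at 7.48, 7.20 and 7.54 against 8.61, 8.91 and 8.81, a rise of 1.37 ± 0.14 (2.59-fold, adjusted p 2.61e-06). It overlaps the end of VMP1, whose own probe set, at a mean of over 11, read 0.02 ± 0.09. MIR146A, an NF-kB-responsive precursor, read 0.46 ± 0.10 and missed the threshold (adjusted p 0.0507). Of 21 measured genes listed as responsive microRNA genes and hosts, 5 rose (MIR21, MIR3189, GDF15, MIR554 and TUFT1) and 3 fell, with a median of 0.16. That list was drawn up with earlier results of these data known, so its counts are no independent result. Over all genes, 0.255% changed.

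MIR17HG, the host transcript of a cluster that promotes cell cycle entry and is a MYC target, fell most. It stood at 5.74, 5.73 and 5.93 in DMSO and at 4.67, 5.0 and 4.90 in BRD8518, and fell by 0.94 ± 0.15 (1.92-fold lower, adjusted p 0.00206). EIF5, the factor that triggers GTP hydrolysis at the start codon, stood at 8.81, 8.82 and 8.29 against 7.79, 7.99 and 7.88, and fell by 0.75 ± 0.13 (adjusted p 0.00441). A control array of EIF5, replicate 3, lay well below the others but above all treated arrays, and without DMSO replicate 1 or 2 the call was lost (up to 0.0672).

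TARDBP, the RNA-binding protein TDP-43, stood at 7.76, 7.92 and 7.76 against 7.35, 7.41 and 7.36, and fell by 0.44 ± 0.09 (adjusted p 0.0362). MIR4521 stood at 4.39, 4.45 and 4.39 against 3.42, 3.90 and 3.65, and fell by 0.75 ± 0.16 (adjusted p 0.0424), and its dimmer probe set read -0.18 ± 0.13. MIR15A, within the DLEU2 host gene, stood at 5.62, 5.73 and 5.62 against 5.19, 5.06 and 4.93, and fell by 0.60 ± 0.12 (adjusted p 0.0395). None of these 3 overlapped between groups, which held for all 38 changed genes and, below DMSO, for 5.56% of all genes. The calls were weak. With 1 of the 6 arrays left out, TARDBP never passed (adjusted p 0.0837 to 0.239), MIR4521 passed only without BRD8518 replicate 2 (otherwise up to 0.304) and MIR15A only without BRD8518 replicate 1 (otherwise up to 0.229). Over all fits that left out 1 of the 6 arrays, 22 of the 33 rises and 1 of the 5 falls, MIR17HG, kept their calls.

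The families of EIF5 and TARDBP were also counted. Of 8 translation initiation factors measured, EIF5 alone passed, and the median was -0.09, with EIF5A at -0.25 ± 0.10. TARDBP alone passed among 19 hnRNP, SR and related RNA-binding proteins, with a median of -0.08. HNRNPH1 read -0.24 ± 0.10 and the splicing kinase CLK1 0.33 ± 0.16. MIR505 read a larger fall than any changed gene, -1.43 ± 0.32, and did not pass (adjusted p 0.0618). Its groups did not overlap, as held below DMSO for 5.56% of all genes.

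The remaining lists were counted the same way. The lists share members, so a gene can be counted more than once, and 0.222% of all genes rose. None of the 16 DNA replication genes passed (median -0.07, CDC6 -0.32 ± 0.08, adjusted p 0.142), nor any of 9 interferon-induced genes (median 0.00) or 11 integrated stress response genes (median -0.08). In the p53 target list, GDF15 alone of 9 rose (median 0.13). Of 20 STAT3 targets and JAK-STAT feedback genes, 4 rose (BCL6, FOS, JUNB and MYC), all of them also counted in lists above. The median was 0.15, and PIM1 read 0.51 ± 0.12 (adjusted p 0.113). SOCS3, the most direct feedback gene of STAT3, stood at 5.40, 5.62 and 5.41 in DMSO and at 5.32, 5.87 and 5.69 in BRD8518, a change of 0.15 ± 0.14, and the groups overlapped.

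**Figure D3:**
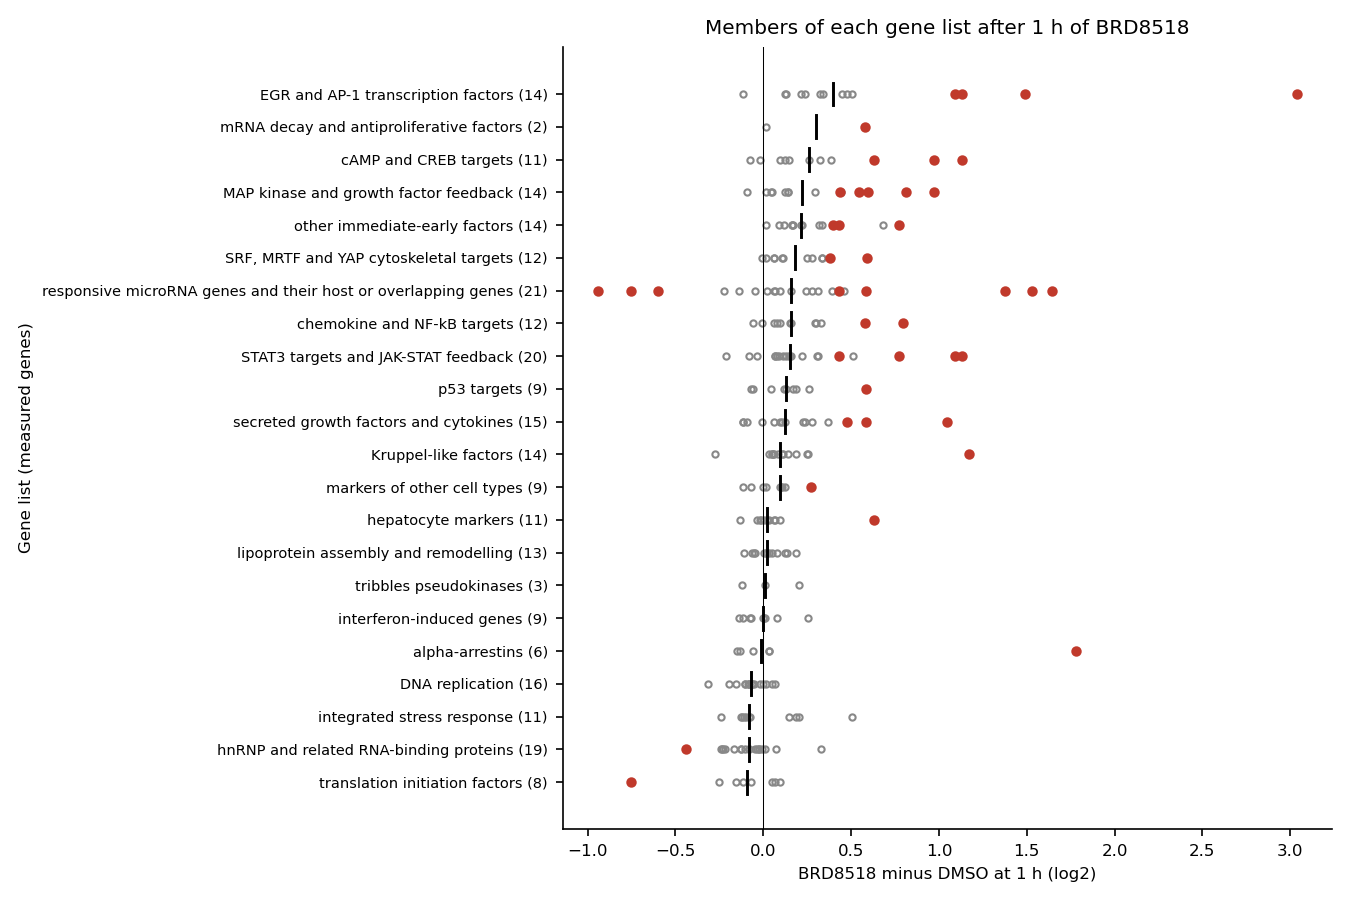
Change after 1 h of BRD8518 (x axis, log2) of each measured gene in 22 gene lists (y axis, with the number measured), filled red where past the threshold. Black bars are list medians, which run from -0.09 for translation initiation factors to 0.40 for EGR and AP-1 factors. ARRDC3 stands alone among the alpha-arrestins and KLF6 among the Kruppel-like factors.

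TRIB1, the pseudokinase named in the series title and tied to plasma lipids, was not past the threshold at 1 h. It stood at 9.15, 9.12 and 9.12 in DMSO and at 9.30, 9.35 and 9.34 in BRD8518. The groups did not overlap, as held above DMSO for 7.97% of all genes. The difference was 0.20 ± 0.08 (95% confidence interval 0.03 to 0.37 before adjustment over genes, adjusted p 0.856). That standard error draws on the spread in all groups. The SD of TRIB1 was 0.017 in DMSO and 0.027 in BRD8518 at 1 h. It was larger with OSM at 1 h (0.104) and in DMSO at 6 h (0.127). The missing call thus does not show that TRIB1 was unchanged at 1 h. TRIB2 read 0.01 ± 0.11 and TRIB3 -0.12 ± 0.09. The lipoprotein genes APOB (0.02 ± 0.07) and MTTP (-0.05 ± 0.18) did not pass, nor did any of the 13 lipoprotein genes listed, whose median was 0.02.

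BRD8518 was set directly against OSM at 1 h, where 349 genes differed (2.34%). The BRD8518 arrays that chose the 38 genes also enter this comparison, and both treatments share the DMSO arrays. Of the 33 risen genes, 8 were higher with BRD8518 than with OSM, 10 were lower and 15 were not called apart. Of the 5 fallen genes, 3 were lower with BRD8518 and 2 were not called apart.

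The 8 genes higher with BRD8518 included ARRDC3, at 7.97, 8.01 and 7.79 with OSM and 1.63 ± 0.13 higher with BRD8518 (adjusted p 1.02e-08). MIR554, at 3.69, 4.05 and 3.87 with OSM, was 1.81 ± 0.15 higher (adjusted p 3.75e-08), and TCIM, at 7.58, 7.51 and 7.68, was 0.95 ± 0.09 higher (adjusted p 1.59e-07). No OSM array of these 3 genes reached the lowest BRD8518 array. BCL6 was 0.66 ± 0.08 higher with BRD8518, TPM1 0.51 ± 0.08, FST 0.49 ± 0.08, TUFT1 0.32 ± 0.08 and MYC 0.25 ± 0.06 (adjusted p 2.23e-05 to 0.0368).

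Several early response and feedback genes were higher with OSM. JUNB, at 10.7, 10.6 and 10.6 with OSM, was 2.35 lower with BRD8518 (-2.35 ± 0.12, adjusted p 1.0e-11). IER3 differed by -1.03 ± 0.08, KLF6 by -0.90 ± 0.09 and FOS by -0.72 ± 0.16. The feedback genes SPRY4 (-0.71 ± 0.08), DUSP6 (-0.53 ± 0.08) and DUSP1 (-0.36 ± 0.07) were lower with BRD8518, as were ZC3H12A (-0.61 ± 0.09), CCL20 (-0.40 ± 0.10) and JUN (-0.31 ± 0.08). EGR1 was not called apart, at 11.9, 11.8 and 11.8 with OSM and a difference of -0.39 ± 0.13 (95% confidence interval -0.66 to -0.12, adjusted p 0.172).

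Outside the changed genes, SOCS3 stood at 10.3, 10.3 and 10.1 with OSM and was lower with BRD8518 by 4.60 (-4.60 ± 0.14, adjusted p 7.44e-16). TRIB1 stood at 10.7, 10.9 and 10.8 with OSM and differed by -1.48 ± 0.08 (adjusted p 4.11e-11). Among the transcripts that fell, BRD8518 minus OSM was -1.38 ± 0.16 for MIR4521, -1.22 ± 0.15 for MIR17HG and -0.99 ± 0.13 for EIF5. Their means in DMSO were 4.41, 5.80 and 8.64, and with OSM 5.04, 6.08 and 8.88. Without DMSO 6 h replicate 2, 27 of the 38 genes differed between the agents in place of 21, beside 4.81% of all genes.

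**Figure D4:**
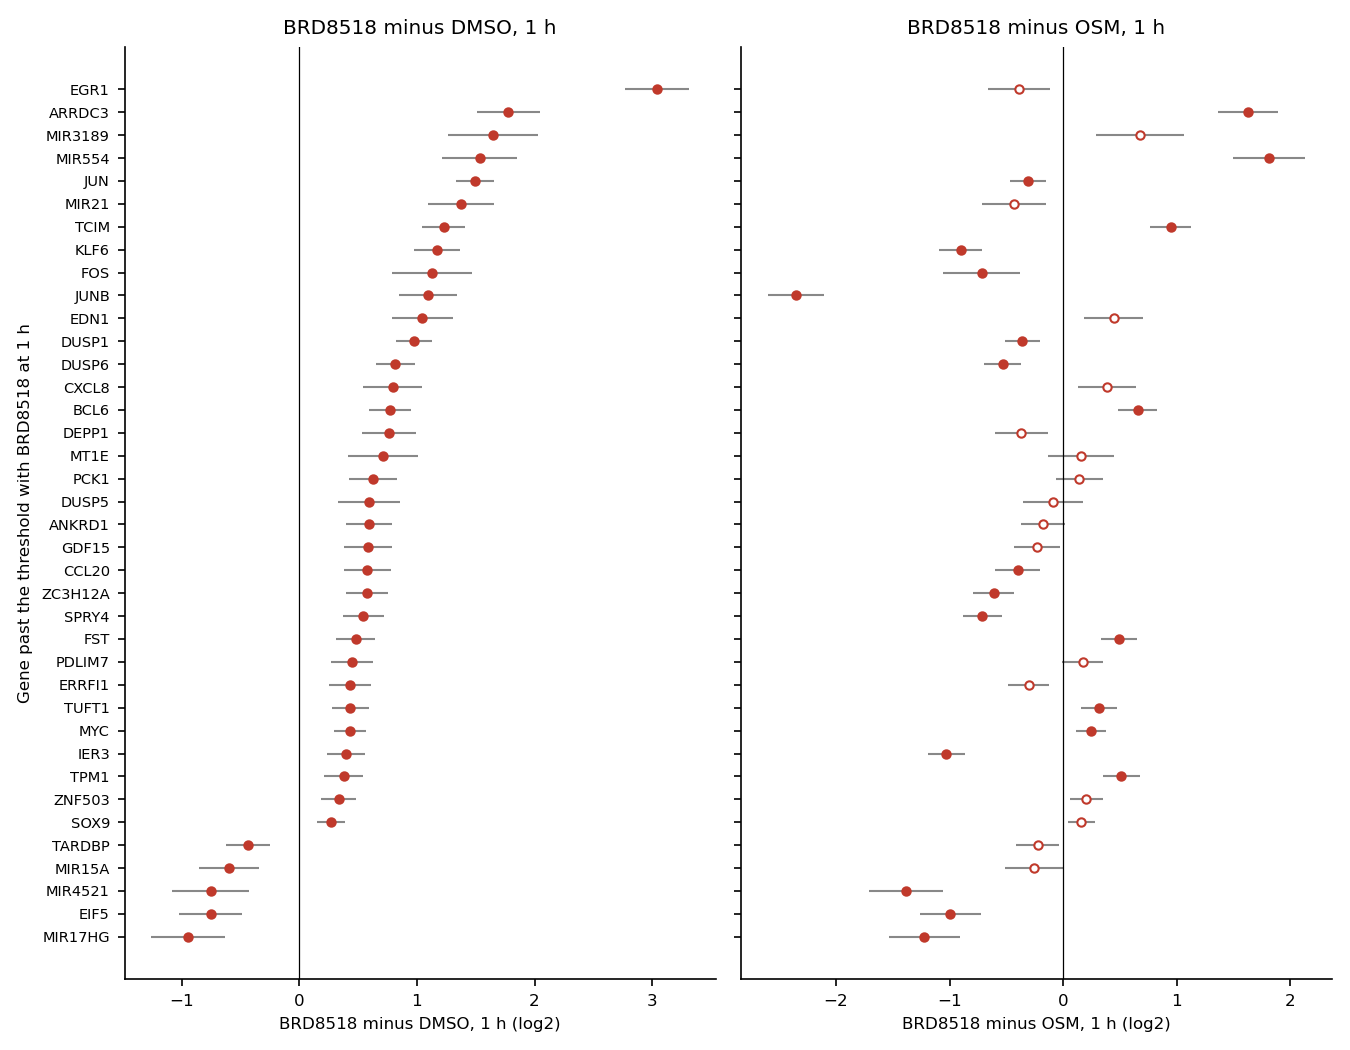
Change of the 38 genes with BRD8518 against DMSO at 1 h (left, x axis in log2) and the difference BRD8518 minus OSM at 1 h (right), with 95% confidence intervals from the fit. Filled points have an adjusted p under 0.05, so 38 are filled on the left and 21 on the right, from JUNB at -2.35 to MIR554 at 1.81.

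The later arrays, with their own DMSO controls, show what became of these genes under continued BRD8518. At 6 h, 30 of the 33 were higher than DMSO, which is 90.9% of them and 3.59% of the 836 genes higher at that time (5.62% of all). MIR554, ZNF503 and SOX9 were not called. Of the 5 falls, MIR4521 and MIR15A were lower at 6 h, where 8.86% of all genes were. At 24 h, 27 of the 33 were higher, which is 81.8% of them and 1.5% of the 1800 genes higher then (12.1% of all), and MIR4521, MIR15A and TARDBP were lower, where 15.6% of all genes were. Without DMSO 6 h replicate 2, 30 of 33 were again higher at 6 h, beside 7.81% of all genes.

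The rises were mostly larger later. The median change of the 33 was 0.71 at 1 h, 1.42 at 6 h and 0.91 at 24 h. The median of all genes was 0.02, -0.01 and -0.00. By size alone, the change was largest at 6 h for 19 genes, at 1 h for 7 and at 24 h for 7. Some of these differences are small. KLF6 read 1.70 at 6 h and 1.67 at 24 h, and EGR1 and DEPP1 had no call between 6 h and 1 h. The 24 h and 6 h changes were not tested against each other. The difference between the 6 h and 1 h changes passed the threshold for 21 of the 38 (6.01% of all genes), and that between 24 h and 1 h also for 21 (17.5% of all genes), with the arrays that chose the genes entering both. Without DMSO 6 h replicate 2 there were 25 in each case, beside 12.8% of all genes between 6 h and 1 h and 26% between 24 h and 1 h.

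EDN1, ANKRD1 and CCL20 were small or moderate at 1 h and large at 6 h. EDN1 rose from 1.05 at 1 h to 2.97 ± 0.13 at 6 h and stood at 1.45 ± 0.13 at 24 h. ANKRD1 went from 0.59 to 2.54 ± 0.10 and 2.23 ± 0.09, and CCL20 from 0.58 to 2.23 ± 0.10 and 0.69 ± 0.10. For these 3 genes the 6 h change exceeded the 1 h change by 1.92, 1.95 and 1.66. DUSP5 continued upward, from 0.59 at 1 h to 2.11 ± 0.13 and 3.99 ± 0.13, and MIR21 from 1.37 to 2.03 ± 0.14 and 2.79 ± 0.14. EGR1 stayed high, at 3.34 ± 0.14 at 6 h and 2.48 ± 0.13 at 24 h.

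A smaller set was highest at 1 h. FOS stood at 1.13, 0.91 ± 0.17 and 0.25 ± 0.16 at 1, 6 and 24 h, and BCL6 at 0.77, 0.68 ± 0.09 and 0.11 ± 0.08. PCK1 read 0.63, 0.53 ± 0.11 and -0.04 ± 0.10. The 24 h changes of these 3 genes were not past the threshold, and each was smaller than the 1 h change by the test of the difference. ARRDC3 stood at 1.78, 1.55 ± 0.14 and 1.43 ± 0.13, with no call between times. MIR554 dropped from 1.53 to 0.27 ± 0.16 at 6 h (difference -1.27, past the threshold) while its overlapping gene TUFT1 went from 0.43 to 1.30 ± 0.08. MIR17HG, lower at 1 h, read 0.44 ± 0.16 at 6 h and -0.04 ± 0.15 at 24 h, and EIF5 -0.23 ± 0.14 and -0.11 ± 0.13. The 2 BRD8518 arrays of MIR17HG at 6 h were far apart, at 6.60 and 5.84 (SD 0.53, beside 0.13 in DMSO at 6 h). TRIB1, not past the threshold at 1 h, was 1.39 ± 0.09 higher at 6 h and 1.21 ± 0.08 higher at 24 h.

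**Figure D5:**
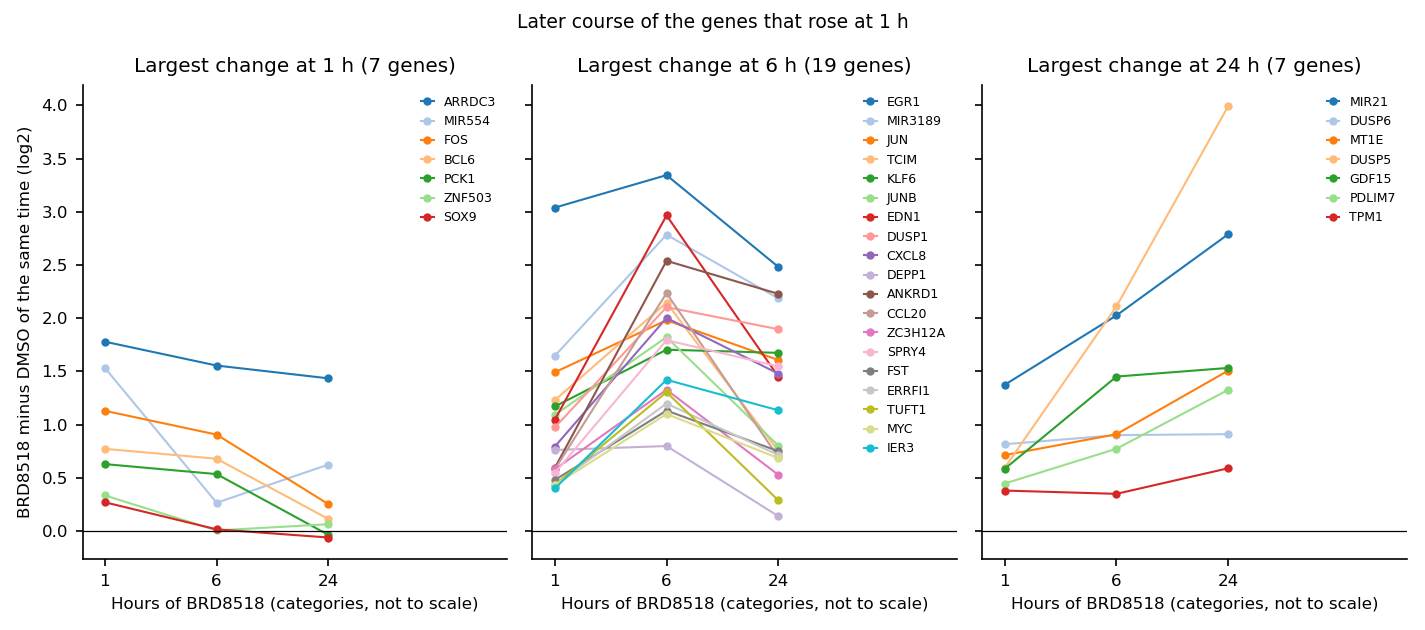
Change with BRD8518 against DMSO of the same time (y axis, log2) at 1, 6 and 24 h (x axis, as categories) for the 33 genes that rose at 1 h, split by the time of the largest change. There are 7 genes on the left, with the largest value at 1 h, 19 in the middle, with it at 6 h, and 7 on the right, where DUSP5 reaches 3.99. The split is by size alone, with no test between 6 h and 24 h.

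The position codes in the labels, whose meaning is not stated, were not balanced over the groups: all 3 DMSO 1 h arrays and BRD8518 1 h replicate 1 carry the letter B, and BRD8518 replicates 2 and 3 carry the letter C. Replicate 1 was the lowest BRD8518 array in 24 of the 33 risen genes, beside 35.8% of all genes. With the letter as a fixed term, replicate 1 alone sets the level of its group, and all 33 rises stayed above 0. The call was kept by 13 genes: EGR1, ARRDC3, MIR3189, MIR554, JUN, MIR21, TCIM, KLF6, JUNB, DUSP1, DUSP6, BCL6 and MIR17HG. EGR1 then read 2.83, JUN 1.37, DUSP1 0.96 and FOS 0.84 (adjusted p 0.50). As a random block the letter had a consensus correlation of -0.0853, and 41 genes were then higher and 12 lower.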

How the data were processed

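The 24 HepG2 arrays were hybridised with biotin-labelled total RNA on an Affymetrix whole-transcript array, per the labels' protocols. The deposited log2 values are RMA summaries from the R package oligo (per the submitters' processing notes, with no version stated) and were used unchanged. Such values carry no detection calls, and the number of arrays limits the precision.

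Of 53617 probe sets, 16098 had 1 symbol in the platform annotation, 0 had several and 37519 had none. All 24 arrays, in 8 groups by title, were fitted with limma 3.58.1 in R 4.3.3 (1 mean per group, eBayes without trend, prior degrees of freedom 5.3, adjustment over 14884 genes, adjusted p under 0.05). The script was checked on simulated data. Figures used matplotlib 3.10.9 in Python 3.11.

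Genes were named by rule: every changed gene, with single arrays for the 15 largest changes and every fall, 6 panel genes (TRIB1, TRIB2, TRIB3, APOB, MTTP and SOCS3), up to 3 unchanged genes per list, and unchanged genes near the threshold chosen after their values were seen. The 22 lists hold 361 genes, 242 of them measured. Members and lists were chosen with earlier results of these data known. Alternatives were a filter on low genes, centring, quantile normalization, trended robust moderation, array weights, a fit of only the groups compared, the mean of all probe sets of a gene or each on its own, a random or fixed term for the position letter, and leaving out arrays.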

Additional observations from a re-analysis of the deposited data

Results flagged for a closer look

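In the DMSO group at 6 h, the group with 4 arrays, 4 of 44 genes looked at had an array set apart from the rest of its group by Dixon's criterion, which chance meets in about 1 in 20 groups. JUNB read 7.61, EIF5 8.41 and MTTP 7.96 in replicate 2, the array described above, and TRIB1 read 8.96 in replicate 1.

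The change with BRD8518 differed between 6 h and 1 h, by the test of that difference, in genes named above. The 6 h minus 1 h difference (log2) was 1.95 for ANKRD1, 1.92 for EDN1, 1.66 for CCL20, 1.52 for DUSP5, 1.39 for MIR17HG, 1.25 for SPRY4, 1.21 for CXCL8, 1.14 for MIR3189, 1.13 for DUSP1 and 1.02 for IER3. It was 0.92 for TCIM, 0.87 for TUFT1, 0.87 for GDF15, 0.76 for ERRFI1, 0.75 for ZC3H12A, 0.73 for JUNB, 0.67 for MYC, 0.65 for FST, 0.53 for KLF6 and 0.49 for JUN. It was negative, at -1.27 for MIR554. For other genes followed throughout, it was 1.19 for TRIB1 and 0.91 for TRIB3. The value for MIR17HG rests on 2 BRD8518 arrays at 6 h that were far apart, at 6.60 and 5.84.

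Between 24 h and 1 h, the difference in change (log2, 24 h minus 1 h) was 3.40 for DUSP5, 1.64 for ANKRD1, 1.41 for MIR21, 1.00 for SPRY4, 0.95 for GDF15 and 0.92 for DUSP1. It was 0.90 for MIR17HG, 0.88 for PDLIM7, 0.79 for MT1E, 0.73 for IER3, 0.69 for CXCL8, 0.65 for EIF5 and 0.50 for KLF6. It was negative, at -0.33 for SOX9, -0.48 for TCIM, -0.56 for EGR1, -0.62 for DEPP1, -0.66 for BCL6, -0.66 for PCK1, -0.88 for FOS and -0.91 for MIR554. For other genes followed throughout, it was 1.36 for TRIB3, 1.00 for TRIB1 and -1.0 for MTTP. MIR17HG and EIF5 had fallen at 1 h, so their positive differences are returns towards DMSO.

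Among the 37519 probe sets that the annotation leaves unnamed here, 44 passed the threshold at 1 h (0.117%), 29 higher and 15 lower, out of 80 over all probe sets. The largest were probe set 16654231, up by 1.74 ± 0.24, and 16654223, up by 1.55 ± 0.19. Of those that fell, 17087951 changed by -1.24 ± 0.14 and 16658941 by -1.13 ± 0.22. Which transcripts they read was not tested.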

How the results depend on the processing

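The counts were 33 genes higher, 5 lower, 349 apart from OSM, 895 and 2604 differing in change at 6 h and 24 h, and 32 and 30 of the 1 h genes called the same way at 6 h and 24 h. Fitting the compared groups alone gave 19 higher, 10 lower, 327 at 6 h and 16 shared with 6 h. Array weights gave 57, 24, 934, 1989 and 4012, with 64 and 57 shared. Leaving out the 6 h DMSO array that stood apart gave 55, 21, 716 and 1898, with 60 and 54 shared. The position letter as a fixed term gave 14, 1, 183, 401 and 1605, with 11 and 11 shared, and as a random block 12 lower (consensus correlation -0.0853). Every other count under these and the remaining alternatives was within 1.5 times of its own.

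Leaving out in turn each array of the groups a count compares gave 22 to 34 genes higher and 1 to 4 lower, with 1 lower without DMSO 1 h replicate 1 or 2. It gave 224 (without OSM 1 h replicate 3) to 296 apart from OSM, and 498 (without BRD8518 6 h replicate 2) to 1898 (without DMSO 6 h replicate 2) at 6 h. It gave 22 (without BRD8518 1 h replicate 2) to 60 shared with 6 h and 19 (without the same BRD8518 array) to 30 shared with 24 h. Fewer arrays leave fewer degrees of freedom. In all, 13 of the 38 genes kept their call under every alternative run for them and 25 lost it under at least 1. None changed sign. No paired analysis was possible because replicate numbers were given in accession order. A group of 3 arrays limits what can be called: the median standard error was 0.11, and 2388 genes had a mean value under 4 over all 24 arrays.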

Other observations

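Some genes just outside the threshold were chosen after their values were seen. SERTAD2 and SERTAD3, transcriptional coregulators of one family, read 0.32 ± 0.07 and 0.34 ± 0.07 at 1 h (adjusted p 0.0514 and 0.0517 in limma). Every BRD8518 array was above every DMSO array, as held for 7.97% of all genes. At 6 h SERTAD2 was 1.07 ± 0.07 higher (adjusted p 8.11e-10) and SERTAD3 read -0.03 ± 0.08. IFRD1, an interferon-related transcriptional regulator, stood at 7.75, 7.75 and 7.59 in DMSO and at 7.21, 7.22 and 7.27 in BRD8518, a difference of -0.47 ± 0.10 (adjusted p 0.0602). It was higher than DMSO by 0.47 ± 0.11 at 6 h and by 0.94 ± 0.10 at 24 h. MIR146A, 0.46 ± 0.10 at 1 h, was 0.66 ± 0.10 higher at 6 h and 1.68 ± 0.10 at 24 h, and with OSM at 1 h it stood at 5.56, 5.63 and 5.69, below the DMSO arrays at 6.13, 6.02 and 6.17. LIF (0.37 ± 0.10) and IL11 (0.24 ± 0.15), cytokines of the interleukin-6 family that did not pass at 1 h, were 2.05 ± 0.11 and 2.15 ± 0.16 higher at 6 h and 2.70 ± 0.10 and 3.16 ± 0.15 higher at 24 h.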
